A study of Rattus norvegicus with 59 samples.

Results

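H3K9me2 was compared between cardiomyocyte nuclei of sham-operated rats and of untrained control rats, the baselines of a surgery experiment and of an exercise experiment. The comparison used every bin of the H3K9me2 map, 6171 genomic bins of the 15874 bins mapped for 2 histone marks in the series. For each bin it took the value of the sham-operated group minus the value of the control group. H3K9me2 is dimethylation of lysine 9 of histone H3. It is written mainly by the paired methyltransferases G9a and GLP, spreads over broad domains and is associated with silent genes and with chromatin at the nuclear periphery. H3K27me3, the mark written by Polycomb repressive complex 2, was mapped in the same groups and is associated with the silencing of developmental genes. In cardiomyocytes, which rarely divide in the adult, both marks are studied as part of how the heart keeps its adult gene programme and how that programme shifts when the heart grows.

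All groups were male Sprague Dawley rats, and all chromatin came from left ventricular nuclei positive for PCM1, a centriolar satellite protein used to sort cardiomyocyte nuclei. Sham-operated rats of about 170 g went through the same surgery as banded rats, but the suture around the ascending aorta was left loose. Untrained control rats of about 280 g had no operation and no exercise protocol. Banded rats of about 170 g had the suture tightened, were examined after 6 weeks and were retained only when the heart was enlarged and not failing. Trained rats of about 280 g ran treadmill intervals for 6 weeks. Start weight, surgery and any processing batch go together with the experiment in the comparison of sham-operated with control nuclei, so that their parts cannot be told apart. No duration was recorded here for sham-operated or control rats, so that a difference in age at examination cannot be told apart either. The labels list 4 chromatin samples per mark and group, but the deposited tables hold 1 column per group. No difference below therefore has a replicate check, no test was possible, and depth per sample is unknown. The sort could not be checked against marker genes, because the gene IDs of the series carry no names here, and the PCM1 label is taken from the submitters.

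Each value is the log2 RPM of a bin, its reads scaled to sequencing depth. The authors name the values normalized, and the sources used here do not say how this was done. Bins ran from 20 kb to 14.74 Mb with a median of 190 kb, and covered 2532 Mb of 20 numbered chromosomes. The 6171 values, once sorted, were nearly the same list in every group: the sham-operated list departed from the control list by at most 0.022 at any rank. Summed RPM was 967112 in sham-operated and 967104 in control nuclei. A gain or loss of H3K9me2 over the whole genome would therefore not show, and a difference says that a bin took a higher or lower place among the bins of its own group. The sources used here do not say from which samples the borders of the bins were drawn, so that an effect of the borders cannot be told apart from a difference in the mark.

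H3K9me2 differed between sham-operated and control nuclei in both directions at many bins, by small amounts at most of them. The difference, sham-operated minus control, had a median of -0.024 log2 RPM, quartiles of -0.30 and 0.31 and an SD over bins of 0.44. It was above 0 in 2893 bins, below 0 in 3251 and exactly 0 in 27. A difference beyond 0.5 log2, which is 1.41-fold, was seen in 1642 bins (26.6%), of which 877 (14.2%) were higher in sham-operated nuclei and 765 (12.4%) were lower. Beyond 1 log2 there were 69 higher and 60 lower bins. The higher bins covered 254 Mb, or 10.0% of the length, with a median bin of 190 kb, and the lower bins covered 105 Mb, or 4.16%, with a median bin of 100 kb. Just inside the limit lay a bin on chromosome 10 from 75015001 to 76035001, at 0.5006, and just outside it a bin on chromosome 3 from 18305001 to 18455001, at 0.4999. On the lower side these were a bin on chromosome 1 from 209195001 to 209535001, at -0.5001, and one on chromosome 10 from 70155001 to 70465001, at -0.4988.

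The 2 comparisons within an experiment, which share a group with this one, were narrower. Banded minus sham-operated had an SD over bins of 0.15 log2, with 9 bins beyond 0.5 (0.146%), 2 of them higher in banded nuclei. Trained minus control had an SD of 0.098, with 3 bins beyond 0.5 (0.0486%), all lower in trained nuclei. The baselines of the experiments thus stood farther apart, by this measure, than either treatment stood from its own baseline.

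The form of the difference was a flatter H3K9me2 profile in sham-operated nuclei. Density, the log2 RPM of a bin per 10 kb of its length, had an SD over bins of 0.29 in sham-operated and 0.48 in control nuclei. The 10th percentile of density was 1.59 in sham-operated and 1.29 in control nuclei, and the 90th percentile was 2.19 in sham-operated and 2.50 in control nuclei. The medians were close, at 1.95 in sham-operated and 1.92 in control nuclei. Both ends of the control distribution were thus drawn in toward the middle in sham-operated nuclei. The groups of the same experiment lay together, with an SD of 0.30 in banded and 0.44 in trained nuclei. Weighted by length, so that long bins count for more, the SD was 0.33 in sham-operated and 0.43 in control nuclei. The narrower spread was not particular to H3K9me2. On its own 9703 bins, H3K27me3 density had an SD of 0.67 in sham-operated and 0.84 in control nuclei. It was 0.68 in banded and 0.88 in trained nuclei.

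**Figure D1:**
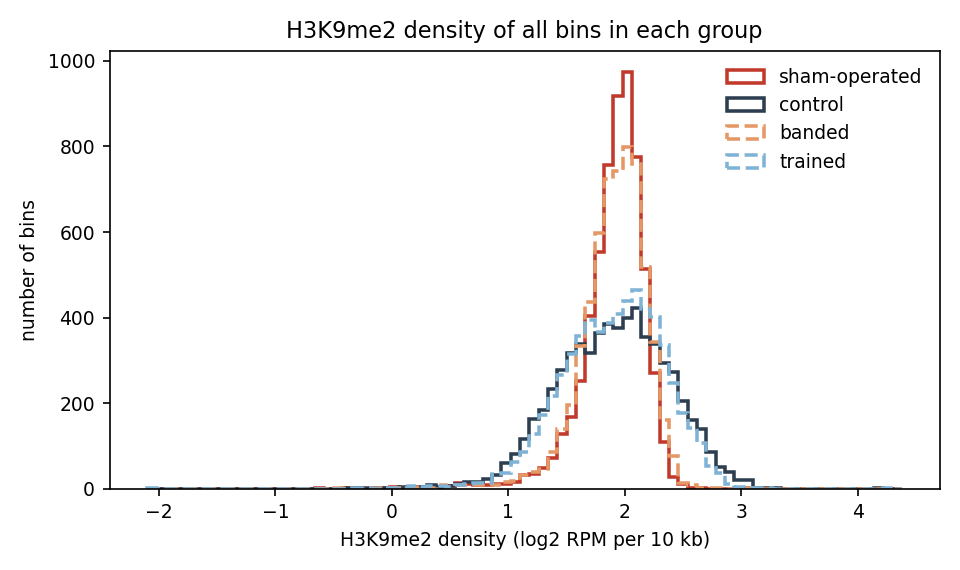
Histogram of H3K9me2 density (log2 RPM per 10 kb, x axis) over 6171 bins (number of bins, y axis), 1 line per group. The sham-operated and banded lines peak more sharply near 2, while the control and trained lines are lower and wider.

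To place bins on a density scale that the contrast does not use, density was averaged over the banded and trained columns, and the bins were cut into 10 classes of equal number, or deciles. The median difference, sham-operated minus control, was 0.40 log2 in the sparsest decile and 0.43 in the next one. It was 0.30, 0.19, 0.06, -0.07, -0.11 and -0.18 in the deciles that followed, then -0.32, and -0.47 in the densest. It thus passed 0 in the middle of the density scale and declined at each step after the second. In the sparsest decile, median density was 1.55 in sham-operated and 1.14 in control nuclei. In the densest decile it was 2.13 in sham-operated and 2.61 in control nuclei.

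The counts followed the same course. Beyond 0.5 log2, 259 bins (42.0%) of the sparsest decile were higher in sham-operated nuclei and 24 (3.89%) were lower. Of the densest decile, 1 bin (0.162%) was higher and 288 (46.6%) were lower. The sparsest decile held 5.66% of all RPM in sham-operated and 4.61% in control nuclei, on 8.58% of the length. The densest decile held 9.14% in sham-operated and 11.4% in control nuclei, on 7.32% of the length.

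Over all bins the rank correlation of the difference with this density was -0.63, a description of 6171 bins that share their libraries and normalization. Its size rested on which column set the scale. With density taken from the banded column alone it was -0.27, with medians of 0.068 in the sparsest and -0.22 in the densest decile, and with the trained column alone it was -0.78, with medians of 0.56 and -0.60. The sign was the same with each.

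**Figure D2:**
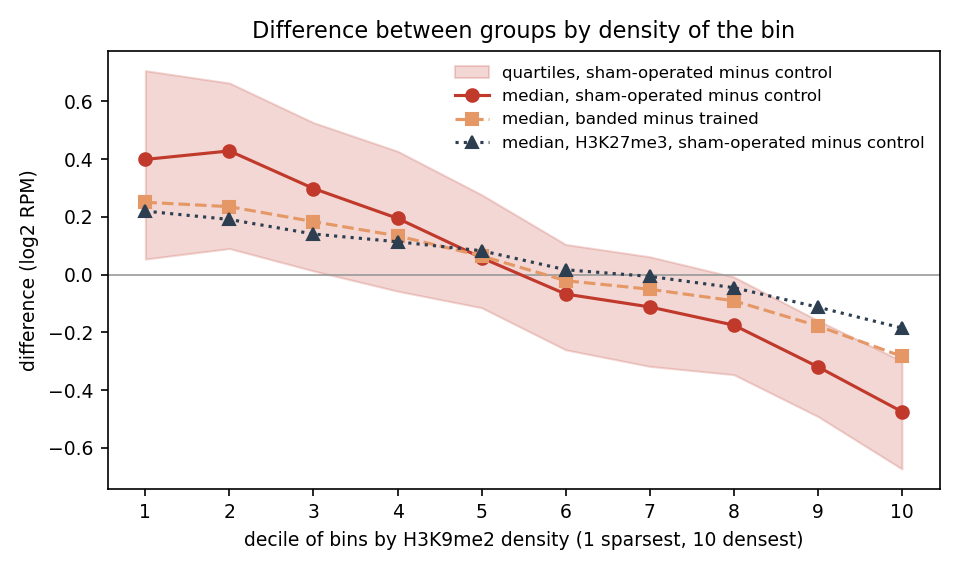
Median difference in log2 RPM (y axis) for deciles of the H3K9me2 bins by density, sparsest on the left (x axis). The solid line is sham-operated minus control with its quartiles shaded, the dashed line banded minus trained, and the dotted line H3K27me3, sham-operated minus control; each falls across 0, the solid one most steeply, with medians of 0.40 at the sparsest and -0.47 at the densest decile.

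A bin's neighbours showed the flatter profile on a local scale. Among 6131 bins with a bin on either side, 2206 were denser than both in the mean of banded and trained nuclei, and here the difference had a median of -0.27. Of these local peaks 24.3% were lower and 1.50% higher in sham-operated nuclei beyond 0.5, and their median density was 2.01 in sham-operated and 2.26 in control nuclei. Another 2203 bins were sparser than both neighbours, with a median difference of 0.28. Of these local valleys 29.0% were higher and 3.27% lower, and their median density was 1.85 in sham-operated and 1.53 in control nuclei. The 1722 bins between their neighbours in density had a median difference of -0.014. Trained values, which entered the mean that set peaks and valleys, lay close to control values, with an SD over bins of 0.098 for trained minus control. Peaks and valleys were not set by the banded column alone, so how far these medians rest on the trained column was not tested.

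The step in density across a border between adjacent bins was read directly from each column. Its median size was 0.20 log2 in sham-operated and 0.53 in control nuclei over 6151 pairs, and 0.21 in banded and 0.46 in trained nuclei. The step was smaller in sham-operated than in control nuclei at 4872 borders (79.2%). Adjacent bins had opposite signs of the difference at 3437 borders (55.9%), and the differences of adjacent bins correlated with r -0.033 over the same pairs, a description of bins that share their libraries.

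Most bins beyond 0.5 had no adjacent bin beyond 0.5 in the same direction. Higher bins were 14.2% and lower bins 12.4% of all bins, so that most would stand alone even in a random order. Whether they joined more or less often than in such an order was not tested. When adjacent bins beyond 0.5 in the same direction were merged, the 877 higher bins gave 789 regions, of which 721 (91.4%) were single bins, 68 held more than 1 bin and the largest held 6. The 765 lower bins gave 656 regions, of which 570 (86.9%) were single bins, 86 held more than 1 bin and the largest held 4. Regions higher in sham-operated nuclei had a median length of 210 kb and reached 1 Mb or more in 39 cases. Regions lower in sham-operated nuclei had a median length of 120 kb, and 1 of them reached 1 Mb.

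The longest higher region was a single bin on chromosome 8 from 112485001 to 115155001, given, like all positions here, as the deposited tables have it and on a genome build not stated there. Its density was 2.13 in sham-operated and 1.20 in control nuclei, a difference of 0.92 log2. The next was a single bin on chromosome 11 from 68465001 to 70925001, with a density of 2.13 in sham-operated and 1.45 in control nuclei and a difference of 0.68. The following region joined 6 bins on chromosome 12 from 34255001 to 36555001, whose differences ran from 0.54 to 1.21 and whose length-weighted density was 1.90 in sham-operated and 1.07 in control nuclei. In control nuclei all 3 lay well below that group's median density of 1.92. In sham-operated nuclei both single bins lay just under that group's 90th percentile of 2.19, and the chromosome 12 region near its median of 1.95. Among lower regions the longest was a single bin of 1.72 Mb on chromosome 12 from 17845001 to 19565001, with a density of 0.23 in sham-operated and 0.75 in control nuclei. It was a region of little H3K9me2 in both groups. Next came a pair of bins on chromosome 4 from 103095001 to 103915001, at -0.69 and -0.68, and a bin on the same chromosome from 149975001 to 150775001, at -0.67.

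The share of bins that differed was smaller in longer bins, though the place of the shortest depended on how low values were treated. Under 100 kb, 35.3% of 1491 bins differed by more than 0.5 log2, 11.3% higher and 24.1% lower in sham-operated nuclei, and the median difference was -0.083. From 100 to 250 kb, 31.2% of 2169 bins did, 17.2% higher and 14.0% lower. From 250 to 500 kb it was 24.4% of 1237 bins, 16.9% higher and 7.52% lower. Higher bins thus outnumbered lower ones above 100 kb, while lower bins were in the majority among the shortest. From 500 kb to 1 Mb the share was 14.0% of 734 bins, 12.9% higher and 1.09% lower, and from 1 to 2 Mb it was 8.52% of 352 bins, 8.24% higher and 0.284% lower. Of the 188 bins of 2 Mb or more, 3 (1.60%) were higher and 0 were lower. With a pseudocount of 20.6 RPM, the 10th percentile of RPM, the order among shorter bins turned round. The share was then 7.04% under 100 kb, 13.9% from 100 to 250 kb and 16.3% from 250 to 500 kb, beside 11.8% over all bins, and it was again lower in longer classes, at 12.5%, 6.82% and 1.60%. The rank correlation with length was -0.25 for the size of the difference and 0.11 for the signed difference over 6171 bins. Longer bins also held more RPM. The median in sham-operated nuclei was 4.52 log2 RPM under 100 kb and 10.1 at 2 Mb or more, where the median difference was 0. With nearly equal sorted lists in all groups, length itself helps to set the place of a bin. How far the length course rests on this, or on the fewer reads of short bins, was not tested.

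Density and length were largely separate properties of a bin, with a rank correlation of 0.053, and the density course was present in each length class. Under 100 kb the median difference was 0.32 in the sparsest quintile of the density scale and -0.58 in the densest. From 100 to 250 kb these medians were 0.52 and -0.46, and from 250 to 500 kb they were 0.46 and -0.33. The course was shallower in longer bins, at 0.36 and -0.23 from 500 kb to 1 Mb, 0.052 and -0.16 from 1 to 2 Mb, and 0.067 and -0.12 at 2 Mb or more, where the outer quintiles held 25 and 11 bins. These quintiles used the mean of banded and trained density, and the length classes were not taken separately with the banded column alone. The ratio of the density SD, sham-operated over control, followed length as well. It was 0.48 under 100 kb, with an SD of 0.24 in sham-operated and 0.51 in control nuclei, and 0.93 at 2 Mb or more, with an SD of 0.30 in sham-operated and 0.33 in control nuclei.

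The difference was spread over every chromosome with no whole chromosome shifted. Summed RPM per chromosome, sham-operated over control, ranged from -0.034 log2 on chromosome 16 to 0.042 on chromosome 19. The median difference ranged from -0.076 on chromosome 19 to 0.044 on chromosome 11 and was below 0 on 17 of 20 chromosomes. What varied was how many bins differed. Bins beyond 0.5 made up 39.4% on chromosome 12, 37.2% on chromosome 10, 32.4% on chromosome 20 and 32.3% on chromosome 19, and 17.3% on chromosome 11, the lowest share. Bins higher in sham-operated nuclei ranged from 7.62% on chromosome 15 to 24.1% on chromosome 12, and lower bins from 4.76% on chromosome 11 to 17.3% on chromosome 3.

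The density course was present on each chromosome. The median of the densest decile was below 0 on 20 of 20 chromosomes, between -0.61 on chromosome 3 and -0.34 on chromosome 13. The median of the sparsest decile was above 0 on 20 of 20, between 0.18 on chromosome 15 and 0.63 on chromosome 10. These deciles used the mean of banded and trained density. With the banded column alone, the medians over all bins were 0.068 in the sparsest and -0.22 in the densest decile, and chromosomes were not taken separately on that scale. The density SD in sham-operated nuclei was 0.47 of that in control nuclei on chromosome 19 and 0.80 of it on chromosome 15, with the others between. Within 5 Mb of a chromosome end, 14.3% of 579 bins were higher and 18.1% lower in sham-operated nuclei, and elsewhere 14.2% of 5592 bins were higher and 11.8% lower.

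**Figure D3:**
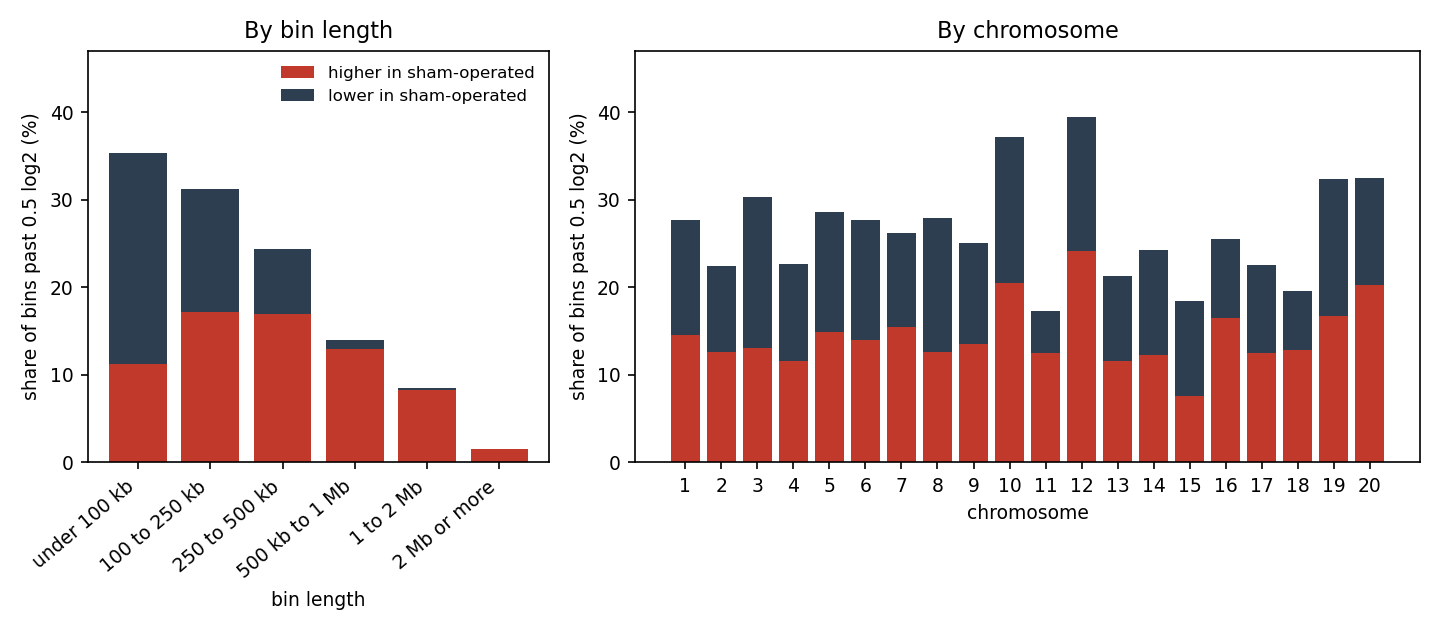
Share of H3K9me2 bins that differed by more than 0.5 log2 RPM between sham-operated and control nuclei (%, y axes) by bin length on the left and by chromosome on the right; the lower part of each bar is higher and the upper part lower in sham-operated nuclei. The share was 35.3% under 100 kb (7.04% with a pseudocount of 20.6 RPM) and 1.60% at 2 Mb or more, and ranged from 17.3% on chromosome 11 to 39.4% on chromosome 12.

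The bin with the largest difference was lower in sham-operated nuclei and short, 60 kb on chromosome 1 from 215545001 to 215605001. It had 3.82 log2 RPM in sham-operated nuclei and 6.80 in control nuclei, with 4.19 in banded and 6.85 in trained nuclei, so that both surgery groups lay low and both exercise groups high. The difference was -2.98, a 7.89-fold higher value in control (-1.93 with the pseudocount of 20.6 RPM), and its density of 4.22 in control nuclei lay far above the 90th percentile of that group. The next was a 190 kb bin on chromosome 4 from 98405001 to 98595001, with 3.84 log2 RPM in sham-operated and 5.62 in control nuclei, a difference of -1.78. Then came 2 bins on chromosome 20. The one from 2695001 to 2795001 had 4.98 log2 RPM in sham-operated and 6.60 in control nuclei, and the one from 775001 to 825001 had 3.09 in sham-operated and 4.44 in control nuclei. A 40 kb bin on chromosome 6 from 77975001 to 78015001 had 3.76 in sham-operated and 5.09 in control nuclei. In each of the 5, banded and sham-operated values were both below control and trained values. Not all were dense: the chromosome 4 bin fell in the sparsest decile and the short chromosome 20 bin in the decile after it.

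The 5 largest positive differences were in bins of 100 to 230 kb. On chromosome 6 from 139065001 to 139295001 H3K9me2 was 6.14 log2 RPM in sham-operated and 4.55 in control nuclei, with 6.39 in banded and 4.78 in trained nuclei, a difference of 1.59 or 3.00-fold. On chromosome 9 from 73225001 to 73375001 it was 6.19 in sham-operated and 4.62 in control nuclei, a difference of 1.57. The remaining ones were a bin on chromosome 1 from 245415001 to 245635001, at 1.42, a bin on chromosome 3 from 154215001 to 154315001, at 1.39, and a bin on chromosome 18 from 57265001 to 57385001, also at 1.39. All 5 lay in the 2 sparsest deciles of density, and banded values exceeded trained values in each, by 0.65 to 1.61 log2.

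Among bins of 500 kb or more, the largest differences were smaller, and those upward exceeded those downward. A 610 kb bin on chromosome 17 from 68955001 to 69565001 had 8.32 log2 RPM in sham-operated and 7.04 in control nuclei, a difference of 1.29. A 530 kb bin on chromosome 4 from 154895001 to 155425001 had 8.19 in sham-operated and 7.00 in control nuclei, a difference of 1.20. Bins on chromosome 19 from 50195001 to 51035001, chromosome 12 from 33055001 to 33815001 and chromosome 7 from 123595001 to 124235001 followed, at 1.06, 1.04 and 1.03. Each of these 5 held more than 2 times the control RPM in sham-operated nuclei. On the lower side, a 560 kb bin on chromosome 17 from 72005001 to 72565001 had 6.59 log2 RPM in sham-operated and 7.43 in control nuclei, a difference of -0.84. The bin on chromosome 4 named above was next, and the other 3 lay between -0.60 and -0.59, on chromosome 7 from 140145001 to 140665001, chromosome 14 from 49065001 to 49825001 and chromosome 20 from 4265001 to 4765001.

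Banded minus trained sets the same experiments against each other in their treated groups and shares no column with sham-operated minus control. It had an SD over bins of 0.30 log2 and ranged from -2.66 to 3.41. Beyond 0.5, 221 bins were higher and 321 lower in banded nuclei, 542 bins in all (8.78%). Over 6171 bins it correlated with sham-operated minus control (Pearson's r 0.90, Spearman's rho 0.91), as a description of bins that share their borders, normalization and experiment. The sign was the same in 5310 bins (86.0%).

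Of the 877 bins higher in sham-operated nuclei, 876 (99.9%) were higher in banded than in trained nuclei, with a median of 0.39 log2, beside 0.68 for sham-operated minus control. Of the 765 lower bins, 764 (99.9%) were lower in banded than in trained nuclei, with a median of -0.45, beside -0.66 for sham-operated minus control. The exceptions were a 40 kb bin on chromosome 4 from 78515001 to 78555001, at 0.51 for sham-operated minus control and -0.095 for banded minus trained, and a 150 kb bin on chromosome 18 from 86525001 to 86675001, at -0.68 and 0.062. Over all 6171 bins, sham-operated minus control lay farther from 0 than banded minus trained in 4664 (75.6%). Higher bins beyond 0.5 in both comparisons numbered 183, which is 20.9% of the 877 and 82.8% of the 221, and lower ones 299, which is 39.1% of the 765 and 93.1% of the 321. Of all bins, 14.2% were higher and 12.4% lower in sham-operated than in control nuclei. Banded minus trained had a median of 0.0038 over all bins. The flatter profile was present in the treated pair too, with a ratio of density SD, banded over trained, of 0.60 under 100 kb and 0.92 at 2 Mb or more.

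**Figure D4:**
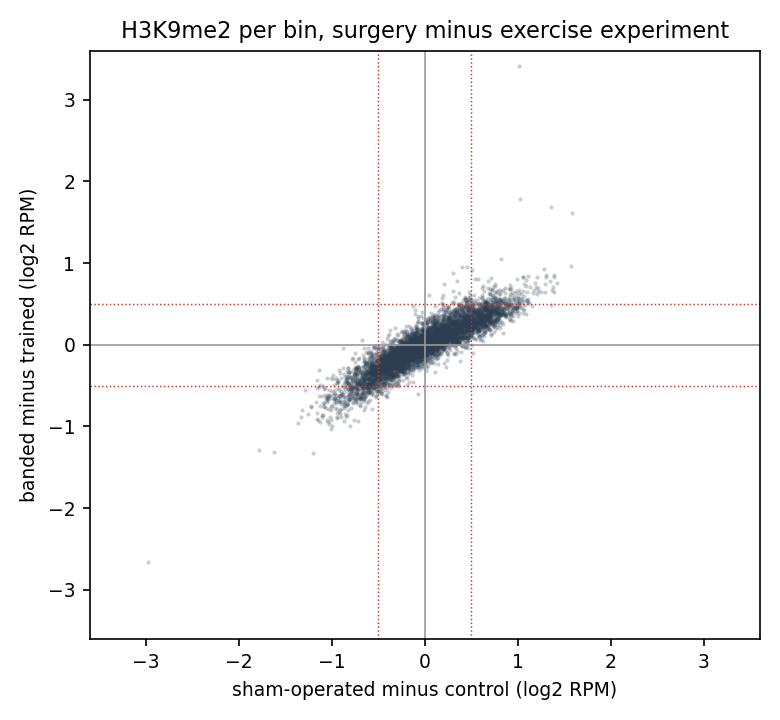
Each point is 1 of 6171 H3K9me2 bins, with sham-operated minus control on the x axis and banded minus trained on the y axis (both log2 RPM); dotted lines mark 0.5 and -0.5. The points follow a rising band (Pearson's r 0.90) shallower than the diagonal.

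H3K27me3 moved with H3K9me2 over the same regions. Its values were laid on the H3K9me2 bins by overlap, and its sham-operated and control columns came from separate tables of the authors. Adjacent H3K9me2 bins within 1 H3K27me3 bin carry the same H3K27me3 difference, so the counts below are not of separate H3K27me3 measurements. On its own 9703 bins, H3K27me3 differed by more than 0.5 log2 between sham-operated and control nuclei in 305 (3.14%). Over the 877 bins where H3K9me2 was higher in sham-operated nuclei, the H3K27me3 difference had a median of 0.32 log2 and was above 0 in 866 (98.7%), beside 3423 of all 6171 bins (55.5%), with a median H3K27me3 density of 1.44 in sham-operated and 1.11 in control nuclei. Over the 765 lower bins the median was -0.23, and 36 (4.71%) were above 0, with a median H3K27me3 density of 2.96 in sham-operated and 3.21 in control nuclei. Over the other 4529 bins the median was 0.029. Across 6171 bins the differences of both marks correlated with r 0.75 and rho 0.78, again as a description of bins that share their groups and experiments.

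The bins lower in sham-operated nuclei were thus rich in H3K27me3 in both groups, beside medians over all bins of 1.86 in sham-operated and 1.79 in control nuclei. In control nuclei the densities of both marks ran together over bins (r 0.78), and in sham-operated nuclei they did so weakly (r 0.21). The values were 0.33 in banded and 0.78 in trained nuclei, so that the surgery and exercise groups again paired by experiment. When bins were ordered by the H3K27me3 density of banded and trained nuclei, median H3K9me2 density in sham-operated nuclei stayed between 1.85 and 1.97 across all deciles. In control nuclei it was 1.39 in the decile with least H3K27me3 and 2.59 in the decile with most. The median H3K9me2 difference, sham-operated minus control, was 0.43 in the decile with least and -0.62 in the decile with most H3K27me3. With most H3K27me3, 446 of 618 bins (72.2%) were lower in sham-operated nuclei beyond 0.5 and 0 were higher, beside the 46.6% lower given above for the decile densest in H3K9me2. These shares do not rank the 2 marks, since both scales were means of banded and trained nuclei. On the H3K9me2 scale the densest decile had a median of -0.22 with banded alone and -0.60 with trained alone. The H3K27me3 order was not tested with either column alone. With least H3K27me3, 39.1% were higher and 1.13% lower.

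**Figure D5:**
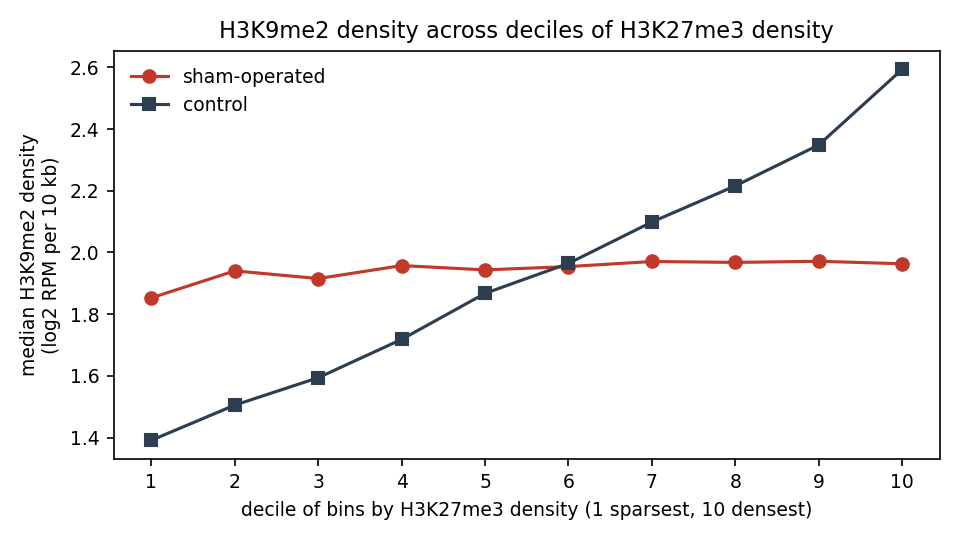
Median H3K9me2 density (log2 RPM per 10 kb, y axis) in deciles of the 6171 bins by H3K27me3 density (x axis, least on the left), for sham-operated and control nuclei. The sham-operated line stays between 1.85 and 1.97, and the control line climbs to 2.59 at the right end, against 1.39 at the left end.

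Among the individual bins named above, the H3K27me3 difference had the same sign as the H3K9me2 difference in all 10 of the higher ones. It was largest in the chromosome 6 bin, at 1.61 log2 beside 1.59 for H3K9me2, and was 0.78 beside 1.29 in the 610 kb bin on chromosome 17. In the 60 kb bin on chromosome 1 with the lowest H3K9me2 difference, H3K27me3 differed by -0.74 log2 beside -2.98. The exception among the lower bins was the 50 kb bin on chromosome 20, where H3K27me3 was 0.22 higher in sham-operated nuclei and H3K9me2 was 1.36 lower. In the lower bin on chromosome 14 the H3K27me3 difference was only -0.019. H3K27me3 bins covered 84.2% of the lower 190 kb bin and 58.8% of the lower 800 kb bin, both on chromosome 4.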

How the data were processed

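Chromatin immunoprecipitation with sequencing was done on nucleosomes released with micrococcal nuclease, per the labels. The authors deposited log2 RPM per bin and mark, as 1 column per group. The bins are named as the result of circular binary segmentation in the deposited tables. Per the submitters' processing notes, edgeR, R 2.15.1, SAMtools and Bowtie were used, with no role stated. Aligner settings, genome build, normalization, use of the inputs, the way samples of a group were combined and the samples that set bin borders were not given in the sources used here. The 2 deposited H3K9me2 tables hold the same bins and equal values for the groups they share.

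Sham-operated minus control was taken per bin, and bins beyond 0.5 log2 were counted. Density is log2 RPM minus log2 of the bin length in units of 10 kb. H3K27me3 RPM was laid on H3K9me2 bins by bases of overlap, assuming even density within a bin. Named bins were the 5 largest differences in each direction over all bins and over bins of 500 kb or more, the 3 longest merged regions in each direction, the chromosomes at the ends of the range of medians, and the bins nearest to the limit. The bins at odds with banded minus trained, and some chromosomes, were named after their values were seen. The comparison, the classes and the rules were chosen with earlier results of these data known. RNA tables were not used, since their gene IDs carry no names or positions here. The computation was checked on simulated bins. Python 3.11.15, pandas 2.3.3, numpy 2.4.6, scipy 1.17.1 and matplotlib 3.10.9 were used.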

Additional observations from a re-analysis of the deposited data

How the results depend on the processing

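With 1 column per group, counting error and the spread between animals are unknown, and leaving out single samples was not possible. No paired analysis was possible because the files hold 1 pooled column per group. Of the main results under the alternatives run, 37 values stayed close, 19 moved and 0 changed sign. Values counted as close could still shift. With the pseudocount given below, the ratio of density SD, sham-operated over control, went from 0.60 to 0.77. The rank correlation with density went from -0.63 to -0.45, and the SD of the difference from 0.44 to 0.32. Some close values could not move, such as the correlation with banded minus trained when the median was subtracted. Of the values of the named bins 33 stayed close, 7 moved and 0 changed sign. The close ones include the bin on chromosome 9 from 73225001, at 1.05 with the pseudocount beside 1.57 without it. The named bins were run only with the pseudocount and with the median subtracted, and neither could change the sign of differences of this size. Counts, shares, SDs and ratios among the main results could not change sign either. The other measures of density, and the ratio of density SD under the other choices, were added after seeing the data. A pseudocount at the 10th percentile of RPM (20.6 RPM), which draws low and so mostly short bins together, left 432 higher and 295 lower bins, a share of 7.04% and a median of -0.038 under 100 kb, and medians of 0.23 in the sparsest and -0.20 in the densest decile. The bins on chromosome 6 from 139065001, chromosome 3 from 154215001 and chromosome 18 from 57265001 were then at 1.05, 0.81 and 0.90, the lower ones on chromosome 1 from 215545001 and chromosome 4 from 98405001 at -1.93 and -0.998, and those on chromosome 20 from 775001 and chromosome 6 from 77975001 at -0.54 and -0.68. A limit of 1 log2 left 69 higher and 60 lower bins, with 0 higher regions and 1 lower region of more than 1 bin. Bins of 100 kb or more alone held 406 lower bins, and the chromosome medians then ran from -0.042 to 0.067. Weighted by length, these medians ran from -0.044 to 0.020. Without the lowest 10% of bins the median under 100 kb was -0.19. With density from the banded column alone the medians were 0.068 in the sparsest and -0.22 in the densest decile, and the rank correlation was -0.27. Subtracting the median difference gave 954 higher and 708 lower bins. Leaving out chromosome X gave no value of its own, since the bins used here lie on numbered chromosomes.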
